A study of Mus musculus with 16 samples.

Results

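The 9 genes described here encode the liver X receptors (LXRs) and targets through which macrophages export and handle cholesterol: Nr1h2, Nr1h3, Abca1, Abcg1, Apoe, Pltp, Mylip, Srebf1 and Scd2. They were taken by name from a count table of 37310 genes, with earlier results of these data known, and all 9 were present in it and passed the filter on low counts in every comparison. RNA came from F4/80+ adipose tissue macrophages (ATMs) sorted from the epididymal fat pads of male mice, either IRF5-KO, in which Cre from the LysM (Lyz2) locus deletes a floxed Irf5 in myeloid cells, or WT mice. Mice of each genotype had been fed a high-fat diet (HFD) for 4 weeks (short term, ST-HFD) or 12 weeks (long term, LT-HFD), with 4 libraries in each of the 4 groups. Starting ages fell in a single range, so the LT-HFD mice were also older when sampled. No group on a normal chow diet was analysed here, so every value belongs to an HFD-fed mouse. The comparisons ask whether IRF5, a transcription factor of inflammatory macrophages, alters these genes at either diet stage, and whether they differ between the stages.

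LXRs are nuclear receptors for oxidised cholesterol. They bind DNA as a pair with a retinoid X receptor, hold corepressors such as NCOR1 when no ligand is present, and on binding oxysterols switch on genes for cholesterol export, lipoprotein remodelling and fatty acid synthesis. In obese fat, macrophages engulf lipid from dying adipocytes and rely on this programme to dispose of the cholesterol.

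The classical LXR binding site is a direct repeat of a 6-base half-site with a spacing of 4 bases, searched here on both strands as GGTNA, 5 bases of any kind and GGTNA again. RefSeq promoters (GRCm38.p6, 250 bases before to 50 after each start) were at hand for 7 of the 9 genes, 12 promoters in all, and 2 of these held a match, against 0.718% of all 32851 promoters. The promoters of Abca1 and Srebf1 with the match, and that of Apoe, the gene with the clearest difference between diet stages, are printed 5′ to 3′, all from the minus strand, with the match in capitals.
Abca1, chr4:53159846-53160145: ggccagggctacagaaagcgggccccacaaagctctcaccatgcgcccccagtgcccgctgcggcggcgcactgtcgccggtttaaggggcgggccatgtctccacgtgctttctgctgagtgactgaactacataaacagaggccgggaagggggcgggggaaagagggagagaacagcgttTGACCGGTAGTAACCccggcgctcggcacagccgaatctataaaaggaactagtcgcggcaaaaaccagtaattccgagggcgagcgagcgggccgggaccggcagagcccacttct
Srebf1, chr11:60210422-60210721: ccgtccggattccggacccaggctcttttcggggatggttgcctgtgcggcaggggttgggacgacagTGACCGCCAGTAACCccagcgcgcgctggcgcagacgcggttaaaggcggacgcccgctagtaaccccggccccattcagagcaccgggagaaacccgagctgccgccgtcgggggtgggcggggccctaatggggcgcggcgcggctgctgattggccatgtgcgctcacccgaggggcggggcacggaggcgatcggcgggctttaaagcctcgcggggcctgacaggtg
Apoe, chr7:19699139-19699438: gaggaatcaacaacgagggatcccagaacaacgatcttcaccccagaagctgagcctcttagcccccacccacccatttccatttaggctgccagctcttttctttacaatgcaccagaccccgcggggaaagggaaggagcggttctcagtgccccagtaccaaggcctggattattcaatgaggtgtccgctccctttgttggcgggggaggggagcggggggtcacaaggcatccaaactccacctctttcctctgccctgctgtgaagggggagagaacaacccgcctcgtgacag
The Abca1 match, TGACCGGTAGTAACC (GGTTACTACCGGTCA on the other strand), lay 67 to 53 bases before the start. The Srebf1 match, TGACCGCCAGTAACC (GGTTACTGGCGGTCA on the other strand), lay 182 to 168 bases before the start of the promoter numbered 3 in the table. The Apoe window held no match to these letters, and neither did the windows of Nr1h2, Nr1h3, Mylip and Pltp. Abcg1 and Scd2 had no entry.

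Library totals ranged from 3279332 to 4958131 counts. The 3 most abundant features, the mitochondrial ribosomal RNAs and a feature annotated as a microRNA, held 18.6 to 24.1% of each library at ST-HFD and 26.1 to 34.5% at LT-HFD. The macrophage markers summed to 6336 to 9679.9 CPM (counts scaled to a common library size) across libraries, and the T cell markers to at most 6.43 CPM. The fibroblast and preadipocyte markers summed to 655 to 8801 CPM. They exceeded the macrophage sum in WT LT-HFD replicate 4 (8801 against 7027 CPM) and IRF5-KO LT-HFD replicate 1 (7271 against 6611 CPM). Irf5 itself showed no reduction with the IRF5-KO label, at 262 ± 11.5 CPM against 238 ± 23.2 CPM in WT at ST-HFD (mean ± SD, n = 4 each; log2 fold change 0.13, edgeR adjusted p = 0.9998) and 229 ± 26.5 against 193 ± 20.1 CPM at LT-HFD (0.24, edgeR adjusted p = 0.853). A whole-gene count need not show the loss of a floxed exon. Lyz2, the locus that carries Cre, separated the genotypes without overlap at both stages, 1396 to 1973 CPM in IRF5-KO against 3095 to 3783 CPM in WT at ST-HFD and 1689 to 2062 against 2968 to 4043 CPM at LT-HFD. The study gives a single range of starting ages for all its mice. Mice fed for 12 weeks were thus also older when sampled than those fed for 4 weeks, and diet duration and age cannot be told apart. The sources used here give no handling date or exact age for each library. Diet duration and anything else that differed between the stages cannot be told apart either. Each direction of diet duration rests on the library labels. Irf5 in WT was lower in the libraries labelled LT-HFD (log2 fold change -0.30, edgeR adjusted p = 0.0485). A display of WT ATM libraries in the study, read by eye, appears to order the stages by Irf5 the other way, and which is right could not be settled here. If the stage labels were exchanged, every direction given for diet duration would turn, those of Apoe and Scd2 included.

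No difference between genotypes was called for any of the 9 genes. At ST-HFD 0 of 9 passed edgeR's quasi-likelihood test at an adjusted p under 0.05, against 0.00913% of 10958 genes tested, and at LT-HFD 0 of 9 passed, against 0.0182% of 10987. At an unadjusted p under 0.05, 0 of 9 passed at either stage, against 1.84% of all genes at ST-HFD and 5.72% at LT-HFD. At ST-HFD same-numbered libraries deviated together, as did some unlike-numbered ones. With the replicate number as a block there, 1 of 9 had an unadjusted p under 0.05, against 4.12% of all genes. This was Nr1h3, lower in IRF5-KO in 4 of 4 same-numbered pairs, at a log2 fold change of -0.40 (edgeR unadjusted p = 0.00748, adjusted p = 0.992). Pltp was also lower in 4 of 4 pairs, at an edgeR unadjusted p of 0.338. The labels do not say whether the number links libraries, and the share of all genes lower in 4 of 4 pairs is not given here. DESeq2 called 0 of 9 at both stages. The genotypes overlapped for all 9 genes at each stage, while 1.47% of all genes did not overlap at ST-HFD and 3.01% at LT-HFD. The median log2 fold change of the 9 was -0.08 at ST-HFD and -0.05 at LT-HFD, beside 0.00 over all genes at each stage. With diet duration, 2 of the 9 passed in WT, 1 higher and 1 lower, against 25.3% of 11560 genes (12.1% higher, 13.2% lower). In IRF5-KO 1 of 9 passed, as lower, against 32.8% (15.6% higher, 17.2% lower), so the share of these genes that changed was not above the background. The median over the 9 was 0.01 in WT and 0.04 in IRF5-KO, beside 0.02 and 0.04 over all genes. The interaction of genotype and diet duration passed for 0 of 9 and for 0 of 11560 genes, with 454 genes (3.93%) and none of the 9 at an unadjusted p under 0.05.

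**Figure D1:**
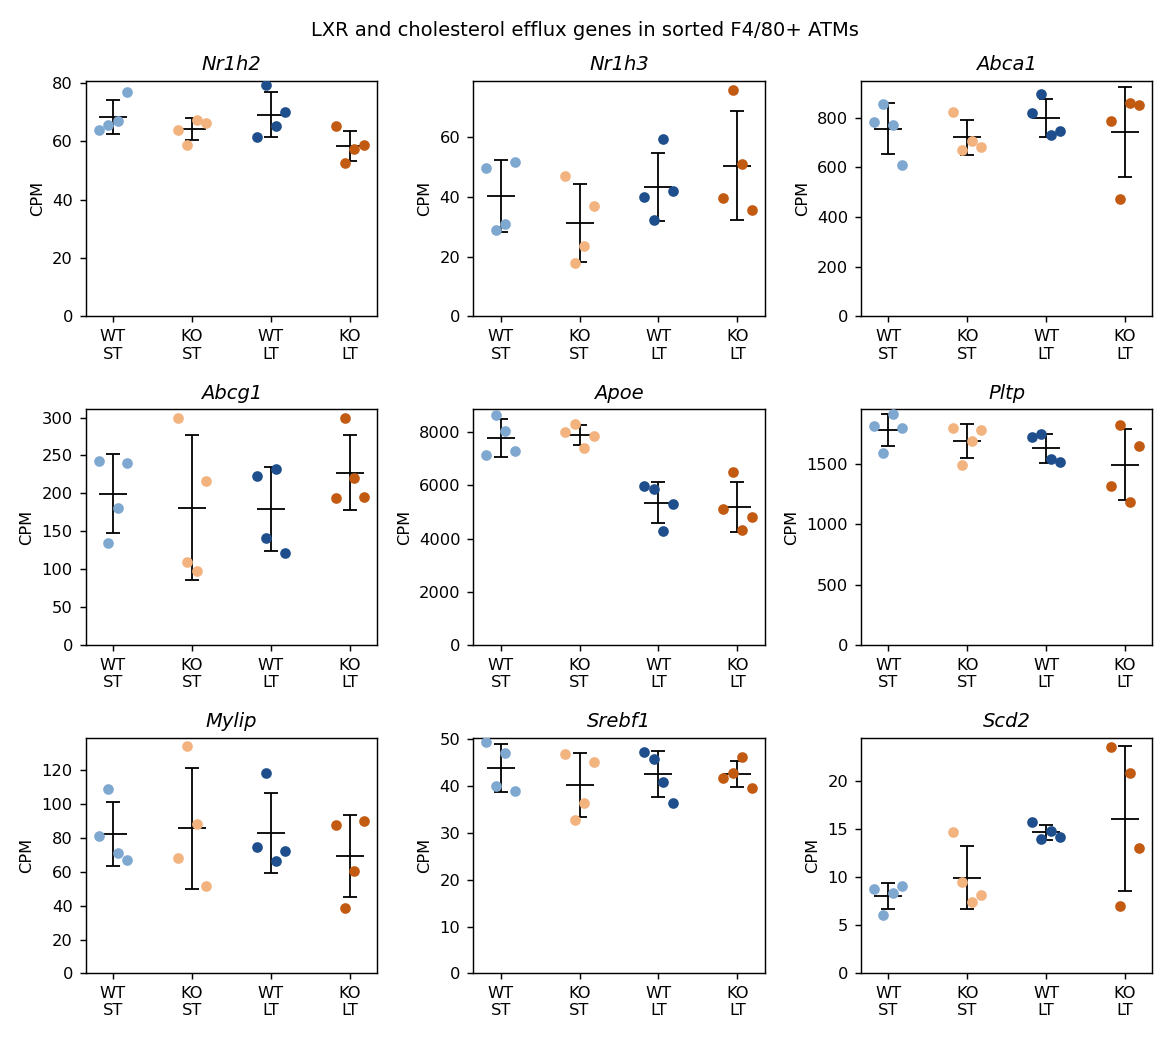
CPM of the 9 genes (vertical axes, from 0) in each library of the 4 groups, with a point per library, a horizontal bar at the group mean and whiskers of 1 SD (n = 4). Apoe was lower in all 8 LT-HFD libraries than in any ST-HFD library, while Nr1h3, Abcg1 and Mylip spread widely inside each group.

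**Figure D2:**
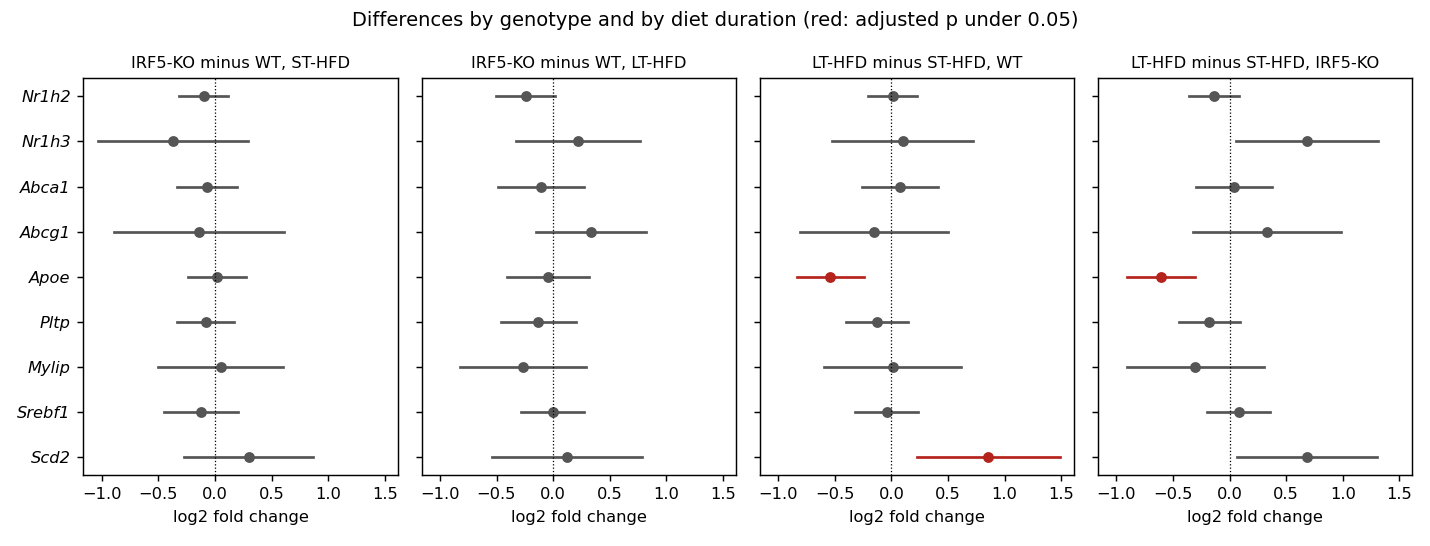
Log2 fold change of each gene (horizontal axes) in the 4 comparisons, with points for edgeR estimates, lines for 95% intervals and red for an adjusted p under 0.05. Both genotype panels hold no red point, and the duration panels hold red points for Apoe in both genotypes and for Scd2 in WT.

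The receptors differed from each other in how steady they were. Nr1h2 (ENSMUSG00000060601, chr7:44549616-44553951, GRCm38) encodes LXRβ, the form present in most cells. It stood at 64.0, 65.7, 67.1 and 76.9 CPM in WT replicates 1 to 4 at ST-HFD, at 64.0, 58.9, 67.5 and 66.2 CPM in IRF5-KO at ST-HFD, at 61.6, 79.3, 65.1 and 70.1 CPM in WT at LT-HFD, and at 65.2, 52.6, 57.3 and 58.7 CPM in IRF5-KO at LT-HFD. All groups overlapped, and the highest library held 1.51 times the lowest. The SD of its log2(CPM + 1) within groups, 0.123, ranked at the 5.42nd percentile of 11560 genes. Its log2 fold change between genotypes was -0.10 ± 0.10 (SE) at ST-HFD and -0.24 ± 0.12 at LT-HFD, where the 95% interval ran from -0.50 to 0.02 (edgeR adjusted p = 0.853).

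Nr1h3 (ENSMUSG00000002108, chr2:91184061-91202834) encodes LXRα, the inducible form of macrophages, liver and fat. It measured 49.8, 29.0, 30.9 and 51.6 CPM in WT replicates 1 to 4 at ST-HFD and 46.9, 17.7, 23.6 and 36.9 CPM in IRF5-KO. At LT-HFD it measured 39.9, 32.1, 59.2 and 41.9 CPM in WT and 39.5, 75.9, 51.1 and 35.5 CPM in IRF5-KO. The groups overlapped in each comparison, with IRF5-KO ST-HFD replicate 2 the lowest and IRF5-KO LT-HFD replicate 2 the highest of the 16 libraries, 4.28 times apart. The SD within groups was 0.477, at the 82.4th percentile. In IRF5-KO the difference between diet stages was 0.69 ± 0.30 on the log2 scale, with a 95% interval from 0.06 to 1.31, and did not pass (edgeR adjusted p = 0.0878). It passed without IRF5-KO ST-HFD replicate 1, at 0.95 (edgeR adjusted p = 0.0263). In WT the same difference was 0.10 (interval -0.52 to 0.72), and the difference between the genotypes in this respect was 0.59 (interval -0.30 to 1.47, edgeR adjusted p = 0.969). Nr1h3 shares 34 exon bases with Gm13783 on the same strand.

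Neither cholesterol transporter passed the test in any comparison. Abca1 (ENSMUSG00000015243, chr4:53030787-53159895) encodes the pump that loads cholesterol onto lipid-poor apolipoprotein A-I. At ST-HFD it measured 784, 853, 771 and 610.3 CPM in WT replicates 1 to 4 and 824, 669.6, 707 and 684 CPM in IRF5-KO, and at LT-HFD 817, 896, 729 and 748 CPM in WT and 788, 473, 857 and 851 CPM in IRF5-KO. The groups overlapped throughout, and IRF5-KO LT-HFD replicate 2 lay apart, the next lowest library being at 610.3 CPM. The log2 fold change with duration was 0.08 in WT (interval -0.26 to 0.42) and 0.04 in IRF5-KO (-0.29 to 0.38), so the intervals left out a change of 1.5-fold in either direction. Between genotypes it was -0.07 at ST-HFD (-0.34 to 0.20) and -0.11 at LT-HFD (-0.49 to 0.27).

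Abcg1 (ENSMUSG00000024030, chr17:31057675-31117988) encodes the transporter that passes cholesterol to mature HDL. It measured 243, 134, 180.2 and 239.9 CPM in WT replicates 1 to 4 at ST-HFD and 299.8, 109.8, 97.0 and 217 CPM in IRF5-KO, then 223, 142, 232 and 122 CPM in WT at LT-HFD and 194, 299.8, 220.0 and 196 CPM in IRF5-KO. Every group overlapped every other, and inside IRF5-KO at ST-HFD the highest library held 3.09 times the lowest. The SD within groups, 0.516, ranked at the 86.0th percentile and was the largest of the 9 genes. Between genotypes its log2 fold change was -0.14 at ST-HFD (95% interval -0.89 to 0.61) and 0.34 at LT-HFD (-0.15 to 0.82, edgeR adjusted p = 0.892). With duration it was -0.15 in WT (-0.80 to 0.50) and 0.33 in IRF5-KO (-0.32 to 0.98), and the interaction was 0.48 (-0.44 to 1.40). Each of these intervals still allows a change of 1.5-fold.

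Apoe was the member that changed with diet duration in both genotypes. It encodes apolipoprotein E (ENSMUSG00000002985, chr7:19696109-19699188), the acceptor that macrophages secrete to carry cholesterol away. At ST-HFD it measured 7125, 8635, 8063 and 7288 CPM in WT replicates 1 to 4 and 8019.7, 8319, 7399.8 and 7874 CPM in IRF5-KO. At LT-HFD it measured 5971, 5853, 4286 and 5311 CPM in WT and 5129.6, 6516, 4327 and 4826 CPM in IRF5-KO. All 8 LT-HFD libraries lay below all 8 ST-HFD libraries, while the genotypes overlapped at each stage. Apoe was 1.45-fold lower at LT-HFD in WT (log2 fold change -0.54 ± 0.14, interval -0.84 to -0.24, edgeR adjusted p = 0.00938) and 1.52-fold lower in IRF5-KO (-0.60 ± 0.14, interval -0.90 to -0.31, edgeR adjusted p = 0.00345). Groups that did not overlap, lower at LT-HFD, made up 13.8% of all genes in WT and 15.2% in IRF5-KO. The fall differed between genotypes by -0.07 (interval -0.49 to 0.35, edgeR adjusted p = 0.981). Between genotypes Apoe differed by 0.02 at ST-HFD (interval -0.24 to 0.28) and by -0.05 at LT-HFD (-0.41 to 0.32).

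The Apoe call held with each library left out in turn, at log2 fold changes from -0.60 to -0.45 in WT and from -0.73 to -0.53 in IRF5-KO. In bulk RNA, fewer cells of a type and less RNA per cell cannot be told apart. Alongside, the 4 resident macrophage markers summed to 1337 to 2788 CPM at ST-HFD and 427 to 1623 CPM at LT-HFD, and passed as lower for 2 of 4 genes in WT and 4 of 4 in IRF5-KO. The 7 fibroblast and preadipocyte markers passed as higher for 7 of 7 genes in both genotypes, with median log2 fold changes of 3.12 and 2.95, and summed to 655 to 1601 CPM at ST-HFD and 3041 to 8801 CPM at LT-HFD. The 8 macrophage markers passed as lower for 2 genes in WT and for 4 in IRF5-KO, where 2 passed as higher. The part of these shifts in the Apoe result was not tested.

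The duration differences of all genes also followed exon length. With all tested genes split into 5 equal length classes, 28.9% of the longest class (7790 exon bases or more) passed as lower at LT-HFD in WT, against 2.68% of the shortest (at most 2533 bases), and the median log2 fold changes were -0.18 and 0.21. In IRF5-KO the shares were 34.4% and 6.29%. Apoe, with 2138 exon bases, belonged to the shortest class, where the median was above 0, and fell. Abca1, with 10363 bases, belonged to the longest class and lay above its median. GC content, 60.0% for Apoe, showed a weaker gradient, with 17.1% of the highest of 5 classes lower in WT against 9.94% of the lowest. This comparison with length and GC content was chosen after the data were seen, and the part of either in the Apoe and Abca1 values was not tested.

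**Figure D3:**
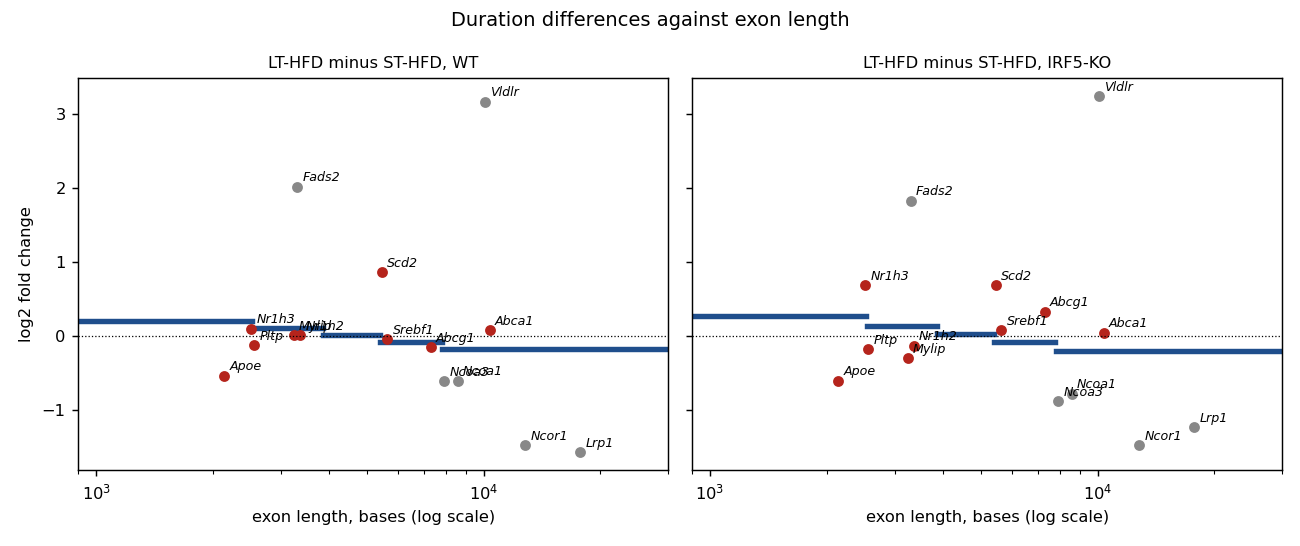
Log2 fold change between diet stages (vertical axes) against exon length in bases (horizontal axes, log scale) in WT and IRF5-KO. Blue bars mark the median of all tested genes in each of 5 length classes, drawn over the length range of the class inside the axis limits, red points are the 9 genes and grey points other genes named in the text. Apoe lies below the median of the short genes in both panels.

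Pltp (ENSMUSG00000017754, chr2:164839518-164857711) encodes phospholipid transfer protein, which remodels HDL. It measured 1814, 1591, 1912 and 1795 CPM in WT replicates 1 to 4 at ST-HFD and 1793, 1489.9, 1689 and 1777 CPM in IRF5-KO, and at LT-HFD 1718, 1748, 1541 and 1511 CPM in WT and 1318, 1821, 1182 and 1643 CPM in IRF5-KO. The groups overlapped, and the lowest 2 libraries were both IRF5-KO at LT-HFD. The log2 fold change with duration was -0.13 in WT (interval -0.40 to 0.15) and -0.18 in IRF5-KO (-0.45 to 0.09). Of the Pltp exon bases, 495 (19.3%) overlap Ctsa on the opposite strand. The libraries were made with a stranded kit, and the strand setting of the counting is not given in the sources used here.

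Mylip (ENSMUSG00000038175, chr13:45389742-45412022) encodes IDOL, a ubiquitin ligase through which LXRs limit lipoprotein uptake. It measured 81.0, 109, 71.4 and 67.1 CPM in WT replicates 1 to 4 at ST-HFD and 68.2, 134, 88.5 and 51.4 CPM in IRF5-KO, and at LT-HFD 74.9, 118, 66.5 and 72.6 CPM in WT and 87.6, 38.8, 60.7 and 90.2 CPM in IRF5-KO. The groups overlapped, and replicate 2 was the highest library of 3 groups and the lowest of IRF5-KO at LT-HFD. No comparison passed, with log2 fold changes from -0.32 for the interaction to 0.05 between genotypes at ST-HFD.

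The lipogenic members differed in depth and in outcome. Srebf1 (ENSMUSG00000020538, chr11:60199089-60222581) encodes SREBP-1, the transcription factor through which LXRs drive fatty acid synthesis. It ranged from 32.7 CPM in IRF5-KO ST-HFD replicate 2 to 49.4 CPM in WT ST-HFD replicate 1, with medians between 40.7 and 43.5 CPM in the 4 groups. All groups overlapped, and the log2 fold change with duration was -0.04 in WT (interval -0.32 to 0.23) and 0.08 in IRF5-KO (-0.20 to 0.36).

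Scd2 (ENSMUSG00000025203, chr19:44293674-44306864) encodes a stearoyl-CoA desaturase, which makes monounsaturated fatty acids. Its counts were the lowest of the 9 genes, 26 to 85 reads per library. It measured 8.78, 6.04, 8.35 and 9.05 CPM in WT replicates 1 to 4 at ST-HFD and 15.7, 14.0, 14.7 and 14.1 CPM at LT-HFD. The WT libraries of the stages did not overlap, as for 12.3% of all genes in this direction. Scd2 rose 1.81-fold in WT (log2 fold change 0.86 ± 0.30, interval 0.23 to 1.49, edgeR adjusted p = 0.0440), a call lost without any of the 8 WT libraries and without IRF5-KO ST-HFD replicate 2, with edgeR adjusted p-values up to 0.117. In IRF5-KO it measured 14.6, 9.52, 7.39 and 8.12 CPM at ST-HFD and 23.5, 7.05, 20.8 and 13.0 CPM at LT-HFD. These groups overlapped, with IRF5-KO LT-HFD replicate 2 the lowest of all IRF5-KO libraries and replicate 4 also below ST-HFD replicate 1. The log2 fold change there was 0.69 ± 0.29 (interval 0.07 to 1.31, edgeR adjusted p = 0.0835), and it passed without that library, at 0.93 (edgeR adjusted p = 0.00844), and without IRF5-KO ST-HFD replicate 1, at 0.94 (edgeR adjusted p = 0.0257). Beside it, the fibroblast and preadipocyte sum, given above, was higher at LT-HFD, and over the 16 libraries the log2 levels of Scd2 and of that sum had a Pearson r of 0.745 (Spearman 0.700), or 0.454 after centring on group means. Its part in the result was not tested. Scd1, the related desaturase, ranged from 17.6 to 81.2 CPM and did not pass in any comparison.

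Per kilobase of exon, a scale on which genes can be set side by side, the mean levels over 16 libraries ran from Apoe at 3068 ± 691 CPM per kb (SD) through Pltp at 643 ± 77.2, Abca1 at 72.8 ± 10.5, Abcg1 at 26.9 ± 8.55, Mylip at 24.8 ± 7.58, Nr1h2 at 19.4 ± 2.02, Nr1h3 at 16.4 ± 5.71 and Srebf1 at 7.50 ± 0.847 to Scd2 at 2.23 ± 0.923. Abcg1 and Mylip lay within each other's SD, and the order of neighbours was not the same in every group. By group means, Mylip lay above Abcg1 in IRF5-KO at ST-HFD (26.5 ± 11.1 against 24.8 ± 13.1 CPM per kb, SD, n = 4) and in WT at LT-HFD (25.7 ± 7.32 against 24.6 ± 7.65), and Nr1h3 above Nr1h2 in IRF5-KO at LT-HFD (20.1 ± 7.22 against 17.4 ± 1.56), in each case by less than the larger SD. The acceptor Apoe stood far above the transporters.

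Nr1h3, Abcg1 and Mylip varied widely between libraries of the same group, and they did so together. Over the 16 libraries the log2 levels of Nr1h3 and Abcg1 had a Pearson r of 0.828 (Spearman 0.841), 0.850 after centring on group means and 0.763 when the 2 libraries with the most extreme Nr1h3 were set aside. Nr1h3 and Mylip ran in opposite directions, at -0.784 (Spearman -0.762), -0.841 after centring and -0.543 with the 2 most extreme libraries set aside. For Abcg1 and Mylip the values were -0.700, -0.683 after centring and -0.655 with 2 libraries set aside. For Abca1 and Abcg1 r was -0.220 pooled and -0.216 centred, and its sign turned to 0.299 with 2 libraries set aside, so no relation between them was shown. These are descriptions over 36 pairs of genes, and the levels in a pair share their libraries and scaling.

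The same axis ran through the summed markers of several cell types. The lipid-associated macrophage markers (Trem2, Cd9, Gpnmb, Spp1, Lpl, Fabp5, Plin2 and Lipa) summed to 1569.5 CPM in WT ST-HFD replicate 2, the lowest, and to 7892 CPM in IRF5-KO LT-HFD replicate 2, the highest. Of these, Lpl, Plin2 and Lipa are also on the wider list of LXR and cholesterol genes given below, at means of 1482, 886 and 397 CPM in WT at ST-HFD. The sum is thus not independent of that pathway. The log2 level of this sum had a Pearson r of 0.925 with Abcg1 (Spearman 0.929), 0.843 with Nr1h3 (0.885) and -0.788 with Mylip (-0.800). After centring on group means these were 0.935, 0.916 and -0.765. The resident macrophage sum (Lyve1, Timd4, Folr2 and Cd163) showed the opposite signs, at -0.749 with Abcg1, -0.883 with Nr1h3 and 0.711 with Mylip after centring, as did the dendritic cell sum (Flt3, Zbtb46, Xcr1 and Cd209a), at -0.750, -0.871 and 0.845. The dendritic cell sum was low, 15.2 to 106 CPM. The macrophage sum had these signs too, at -0.527 with Abcg1, -0.716 with Nr1h3 and 0.639 with Mylip after centring. So did the neutrophil sum (-0.545, -0.662 and 0.726) and the T cell sum (-0.687, -0.645 and 0.401), both from low sums. The fibroblast and preadipocyte, mesothelial and B cell sums had the same signs, and the endothelial sum was at 0.146, 0.158 and 0.108. For Abca1 the centred r with the lipid-associated sum was -0.397, and for Apoe -0.158. The adipocyte sum, 92.6 to 375 CPM, had a centred r of 0.764 with Nr1h3, a gene that adipocytes also express, 0.680 with Abcg1 and -0.551 with Mylip. Whether these libraries differ in cell composition or in state was not tested.

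**Figure D4:**
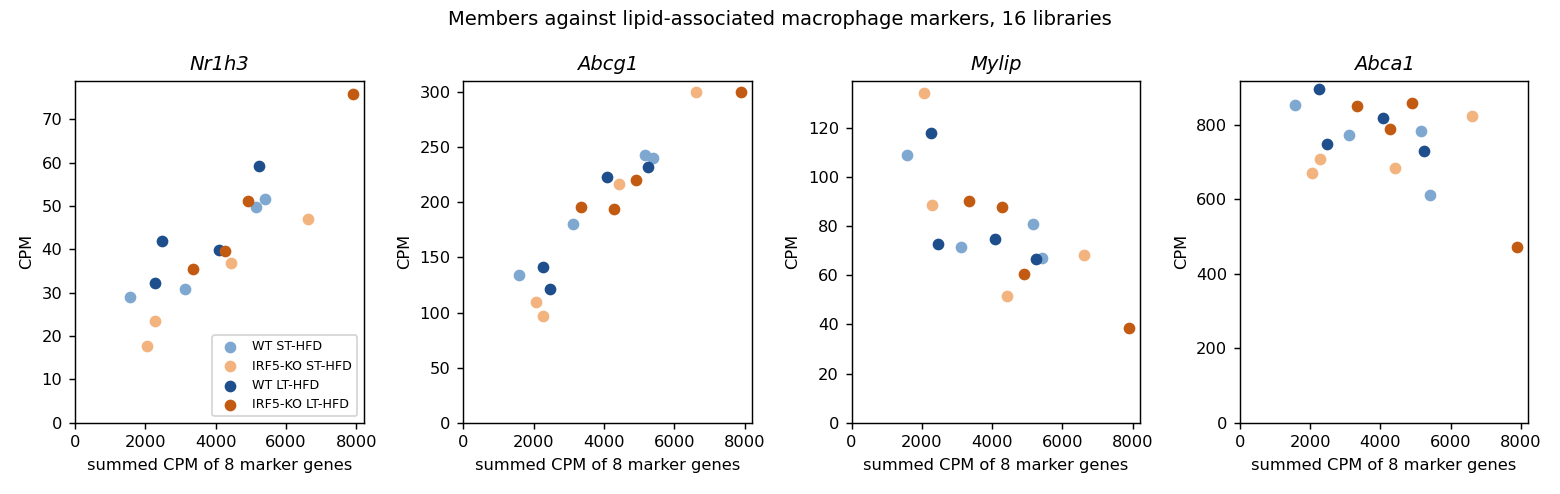
CPM of Nr1h3, Abcg1, Mylip and Abca1 (vertical axes) against the summed CPM of 8 lipid-associated macrophage markers (horizontal axes), with a point per library coloured by group. Nr1h3 and Abcg1 tend to be higher and Mylip lower where the sum is higher, and Abca1 shows no such line apart from IRF5-KO LT-HFD replicate 2 at 473 CPM.

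IRF5-KO LT-HFD replicate 2 stood at an end of the range for several of these genes, with the highest Nr1h3, the lowest Abca1, Mylip and Nr1h2, the highest lipid-associated sum and the lowest dendritic cell sum. The tests of these genes between genotypes at LT-HFD made 0 calls with or without this library.

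By likeness of log2 CPM over the 16 libraries, the genes nearest to Abcg1 were Wdr1 (Pearson r 0.966), Lasp1 (0.950) and Gusb (0.947), and those nearest to Nr1h3 were Mtpn (0.936), 2700094K13Rik (0.918) and Tubb5 (0.916). Mylip was nearest to Ralgps2 (0.905), Nr4a2 (0.898) and H2-Q7 (0.893). Apoe was nearest to Raph1 (0.966), Ctage5 (0.952) and Pnn (0.944), and lower at 0.848, 0.794 and 0.795 after centring on group means. Scd2 was nearest to Synm (0.915), a gene of the cytoskeleton, and Pltp to Lamp1 (0.860), the lysosomal membrane protein. Abca1 was nearest to Apbb1 (0.794) and Srebf1 to Hnrpll (0.750).

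Of 58 further genes of LXR signalling and cholesterol handling, all in the table, 0 of the 52 tested at ST-HFD and 0 of the 51 tested at LT-HFD passed between genotypes, and 0 of 53 passed for the interaction. With diet duration, 16 of 53 (30.2%) passed in WT, 7 higher and 9 lower, and 20 of 53 (37.7%) in IRF5-KO, 8 higher and 12 lower, beside the backgrounds of 25.3% and 32.8%. The calls in common numbered 13, which is 81.2% of those in WT and 65.0% of those in IRF5-KO.

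The receptor partners and coregulators held the largest share of calls among the 4 roles on the list. In WT 4 of 7 passed, all lower, and in IRF5-KO 5 of 7, all lower, with list medians of -0.60 and -0.78 on the log2 scale. Ncor1, a corepressor, fell 2.78-fold in both, from a mean of 249 ± 8.43 to 89.5 ± 10.97 CPM in WT (n = 4 each). The coactivators Ncoa1 and Ncoa3 fell less, 1.52-fold and 1.53-fold in WT and 1.72-fold and 1.84-fold in IRF5-KO. These 3 genes belong to the longest class by exon length (7895 to 12811 bases), in which falls were the most frequent and the median log2 fold change was -0.18 in WT and -0.21 in IRF5-KO. The part of length in these falls was not tested. Of the receptor partners, Rxra fell 1.5-fold in IRF5-KO (edgeR adjusted p = 0.0114) and measured a log2 fold change of -0.09 in WT, where it did not pass, and the interaction for it did not pass (-0.49, edgeR adjusted p = 0.969). Rxrb passed in neither genotype.

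Among 18 other LXR targets tested, 4 passed in WT (2 higher, 2 lower) and 6 in IRF5-KO (3 higher, 3 lower), and the list medians were -0.25 and -0.02. Smpdl3a, a phosphodiesterase, rose 1.60-fold in WT and 1.75-fold in IRF5-KO. Fads2, a fatty acid desaturase, rose 4.04-fold and 3.54-fold, at only 2 to 7 reads per library at ST-HFD and 10 to 24 at LT-HFD. Fasn, fatty acid synthase, passed as lower in both, 1.47-fold and 1.61-fold. Lpl, Lpcat3, Abhd6, Mertk and Scd1 did not pass in either genotype.

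Among 22 genes of cholesterol uptake, storage and transport, 6 passed in WT (3 higher, 3 lower) and 8 in IRF5-KO (5 higher, 3 lower). Vldlr, a lipoprotein receptor that binds APOE, lay between 2.32 and 6.33 CPM at ST-HFD and between 18.9 and 67.1 CPM at LT-HFD in WT, a rise of 8.94-fold, and rose 9.40-fold in IRF5-KO. Beside it, the 7 fibroblast and preadipocyte markers passed as higher for 7 of 7 genes in both genotypes, with median log2 fold changes of 3.12 in WT and 2.95 in IRF5-KO, and their part in this and the other changes of the wider list was not tested. Lrp1, the large endocytic receptor that also binds APOE, fell 2.97-fold in WT, from a mean of 2198 ± 358 to 740.3 ± 172 CPM, and 2.34-fold in IRF5-KO. With 17717 exon bases Lrp1 belongs to the longest class described above, as does Vldlr with 10068, and the part of length in the fall of Lrp1 was not tested. Abca7, a transporter related to Abca1, fell 1.40-fold and 1.76-fold. Hsd3b7, an enzyme of oxysterol breakdown, rose 1.56-fold and 1.5-fold, and Tspo, a protein of mitochondrial cholesterol import, 1.31-fold and 1.38-fold. The scavenger receptor Cd36 and the esterifying enzyme Soat1 did not pass in either genotype.

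Of the 6 genes of the SREBP branch, which senses low cholesterol, Insig1 (1.35-fold) and Insig2 (1.83-fold) rose in WT and 1 gene passed as lower in IRF5-KO. Sqle, an enzyme of cholesterol synthesis, did not pass in either genotype.

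**Figure D5:**
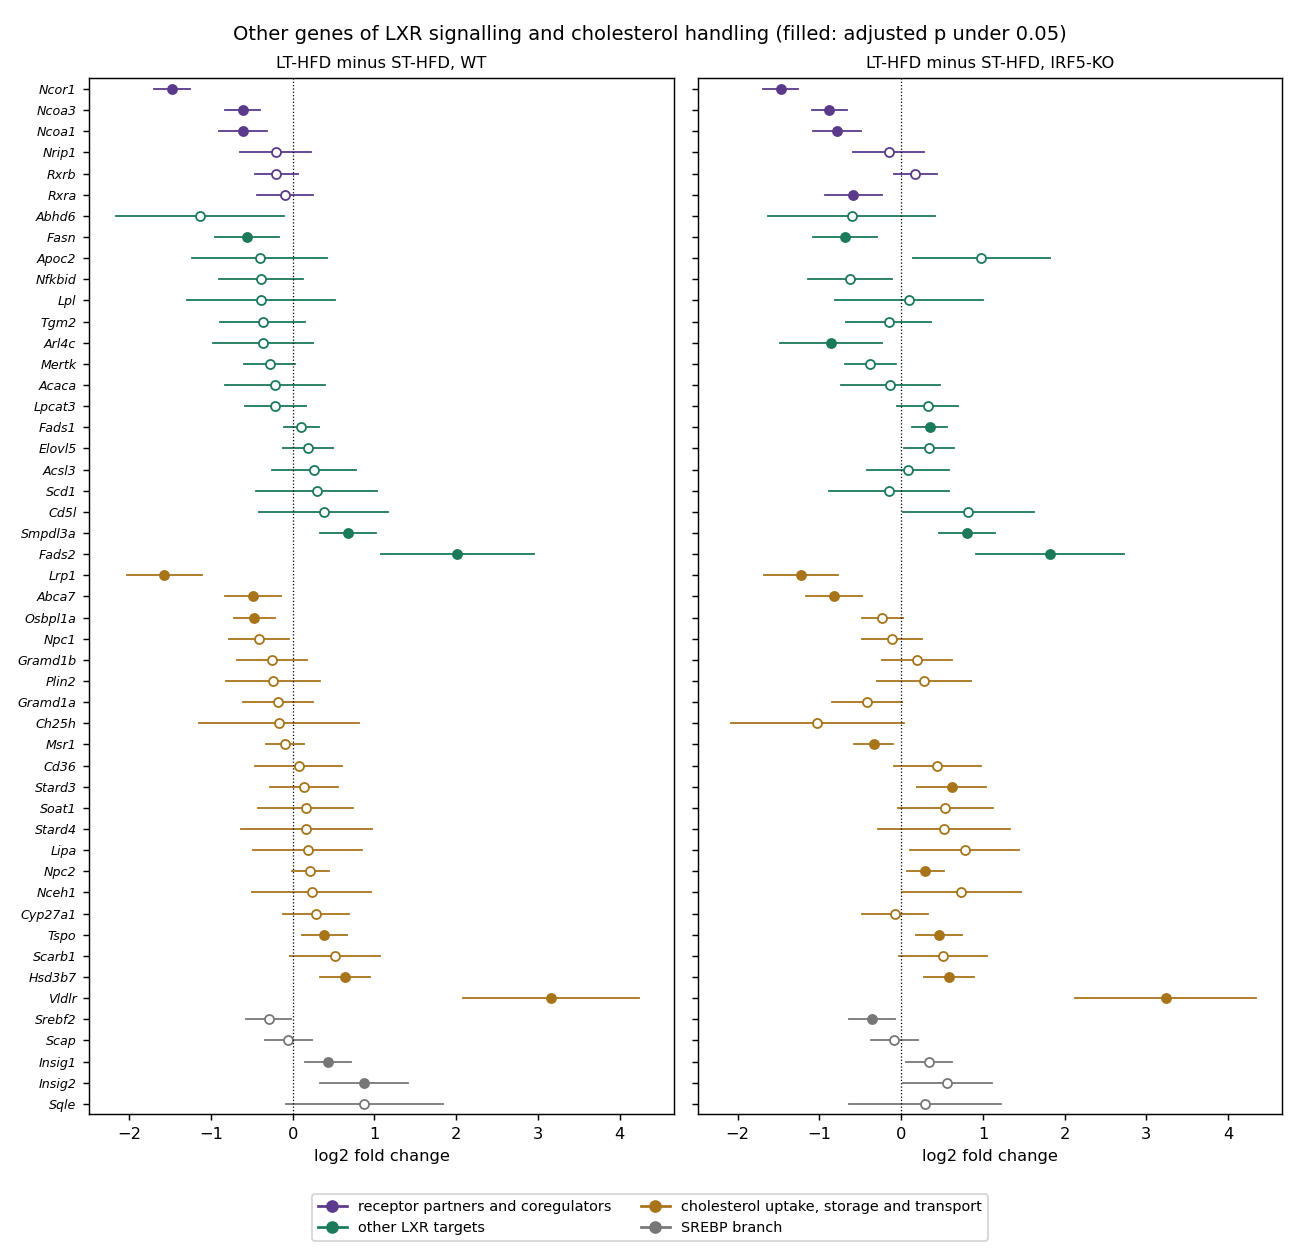
Log2 ratio of LT-HFD over ST-HFD (horizontal axes) with 95% intervals for tested genes of the wider list, in WT and IRF5-KO, coloured by role and ordered by the WT value inside each role. Filled points have an edgeR adjusted p under 0.05, with Ncor1 and Lrp1 the lowest filled points and Vldlr and Fads2 the highest in both panels.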

How the data were processed

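Per the labels and the study's methods, the authors sorted F4/80+ ATMs, prepared ribodepleted, stranded total RNA libraries, trimmed reads with fastp (0.19.11) and aligned them with STAR (2.7.3a, named in the submitters' processing notes). They deposited raw counts per gene for 16 libraries. The annotation and strand setting of the counting are not given in the sources used here. CPM were computed on TMM-scaled library sizes. Genes passing filterByExpr were tested with edgeR (4.0.16, R 4.3.3) quasi-likelihood tests and Benjamini-Hochberg adjustment over all of them, the genotype contrasts on the 8 libraries of a diet stage and the others on all 16. DESeq2 (1.42.0) was an alternative. The fits were tested on simulated data. P-values measure the spread between libraries, which the labels number as replicates. No 2 libraries of a group agreed within sampling noise (chi-square per degree of freedom at least 4.00). Same-numbered WT and IRF5-KO libraries deviated together at ST-HFD (r 0.182 to 0.492 for the 4 pairs) but not at LT-HFD (-0.150 to 0.239). Some unlike-numbered libraries at ST-HFD were as alike, WT 4 with IRF5-KO 1 at 0.48 and WT 2 with IRF5-KO 3 at 0.422, and others ran down to -0.521. The labels do not say whether the number links libraries. The members and gene lists were chosen with earlier results of these data known. Named genes were the 9 members, Irf5 and Lyz2, at most 8 called genes of the wider list per direction and comparison with the smallest p, and, for each member, up to 3 genes with the highest Pearson r. Genes of the list named as not passing were chosen after their values were seen. Exon lengths and overlaps are from GENCODE vM21 (GRCm38). Some genes of the wider list are not reported here by name.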

Additional observations from a re-analysis of the deposited data

Results flagged for a closer look

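Of the 36 sets of 4 libraries (9 genes in 4 groups), 1 had a library far from the others, where chance gives about 1 in 20. Mylip in WT LT-HFD replicate 2 stood at 118 CPM, and its gap to the next library was 0.837 of the whole range of the group. The other libraries of that group lay between 66.5 and 74.9 CPM. The cause was not tested.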

How the results depend on the processing

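Of 927 fold changes of the 9 genes under alternative settings, 864 kept their direction and their side of the threshold, 9 lost the call, 4 gained it and 50 changed sign. The Apoe calls held in every fit with a library left out, at edgeR adjusted p-values of 0.00375 to 0.0338 in WT and 0.00066 to 0.0165 in IRF5-KO. Members called with duration numbered 1 to 2 in WT and 1 to 3 in IRF5-KO when a library was left out, and 2 in IRF5-KO with upper-quartile scaling, which added Scd2 (edgeR adjusted p = 0.0443) and moved the median of all genes to 0.10 in WT and 0.15 in IRF5-KO. Over all genes, genotype calls at ST-HFD numbered 2 with DESeq2, without a filter on low counts and with all 16 libraries, against 1, and at LT-HFD 6 with DESeq2, 6 without a filter and 0 with a filter at a mean of 20 counts, against 2, with 0 to 2 when a library was left out. With the replicate number as a block, these counts were 2 at ST-HFD and 0 at LT-HFD, Mylip at ST-HFD was -0.0038, and the block changed no call of the 9 genes at an adjusted p under 0.05. At an unadjusted p under 0.05, the count between genotypes went from 0 to 1 of 9 in 5 alternative fits, at edgeR adjusted p-values from 0.609 to 0.992. At ST-HFD this was Nr1h3, with the block (unadjusted p = 0.00748) and without IRF5-KO ST-HFD replicate 1 (-0.65, 0.0456). At LT-HFD it was Nr1h2 with all 16 libraries (-0.24, 0.0365) and without IRF5-KO LT-HFD replicate 1 (-0.29, 0.0479), and Abcg1 without WT LT-HFD replicate 3 (0.50, 0.0470).

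Signs changed only for differences that did not pass. Srebf1 between genotypes at LT-HFD was 0.011 with upper-quartile scaling, 0.00188 without a filter, 0.0036 with the filter at a mean of 20 counts and 0.00070 with all 16 libraries. For duration in WT, Nr1h2 was -0.011 and Mylip -0.0087 without a filter, and Srebf1 was 0.036 with upper-quartile scaling. With a library left out, log2 fold changes that changed sign ranged, between genotypes at ST-HFD, from -0.51 to 0.070 for Abcg1, -0.016 to 0.062 for Apoe and -0.25 to 0.23 for Mylip. At LT-HFD they ranged from -0.056 to 0.42 for Nr1h3, -0.18 to 0.050 for Abca1, -0.18 to 0.040 for Apoe, -0.076 to 0.067 for Srebf1 and -0.11 to 0.37 for Scd2. For duration in WT they ranged from -0.062 to 0.079 for Nr1h2, -0.091 to 0.25 for Nr1h3, -0.0039 to 0.14 for Abca1, -0.20 to 0.18 for Mylip and -0.098 to 0.029 for Srebf1, and in IRF5-KO from -0.036 to 0.20 for Abca1 and -0.0067 to 0.16 for Srebf1. For the interaction they ranged from -0.11 to 0.13 for Abca1, -0.19 to 0.014 for Apoe, -0.42 to 0.081 for Scd2 and -0.16 to 0.044 for Pltp. At 26 to 85 reads per library, counting error alone gave Scd2 an SD of 0.223 on the log2 scale, against 0.433 measured within groups.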
